A study of Mus musculus with 15 samples.

Results

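Tight junction claudins and their partners were followed across the small intestinal epithelium of adult mice. The set held 10 genes of the 19938 named on the array, taken by symbol: the claudins Cldn2, Cldn3, Cldn4, Cldn7, Cldn8, Cldn12, Cldn15 and Cldn23, the scaffold Tjp1 (zonula occludens 1) and the membrane protein Ocln (occludin). RNA of isolated epithelial cells was hybridised to 15 Affymetrix Mouse Gene 1.0 arrays, 3 in each of 5 groups. They were jejunum from Gata4 conditional knockout mice (cKO), jejunum from CD1 wild types, ileum from Gata4 conditional knock-in mice (cKI), ileum from mice labelled control, and ileum from CD1 wild types. The sources used here do not give the Cre driver, the strain of the cKO, cKI and control mice, their exact age or the number of animals behind each array. The p-values therefore measure the spread between these samples, which may be technical. The number of arrays limits the precision.

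Tight junctions seal the space between neighbouring epithelial cells, and claudins are the membrane proteins that set which ions and water pass there. Claudin-2 and claudin-15 form pores for small cations and are the pore-forming claudins of the gut, whereas claudin-4 and claudin-8 are known mainly for tightening the seal. Occludin is a membrane partner of the claudin strands, and Tjp1 ties them to the actin cytoskeleton. Gata4 encodes a zinc finger transcription factor that the upper small intestine makes and the distal ileum normally makes little of.

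Values are the authors' log2 signal of 1 transcript cluster (a set of probes for 1 gene). A gene was called when its adjusted p in limma, with the Benjamini-Hochberg adjustment over all 11784 genes tested, was under 0.05. Counts at an unadjusted p under 0.05, for members, markers or junction lists, stand without the share of all genes at that threshold. They are not read as results about those genes. Errors of differences are standard errors of that model, and values in parentheses after a mean are SDs with n = 3 arrays. Levels were not set against each other between genes, since each cluster has its own probes.

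Start regions of the members were read from RefSeq (GRCm38.p6), which listed 8 of the 10 genes with 12 start sites. Cldn8 and Cldn23 are named only. The 250 bases upstream of each start were searched on both strands for the GATA hexamers (AGATAA or, ending in G instead, AGATAG, and beginning with T instead, TGATAA or, ending in G, TGATAG), for TTTAT as the core of the CDX motif, for GTTAAT as an HNF1 half-site and for the TATA box letters TATAAA. Shown are Cldn2 (chrX:139800558-139800807, plus strand) and Cldn15 (chr5:136967619-136967868, plus strand), the pore-forming claudins that moved in opposite directions, and Cldn4 (chr5:134946935-134947184, minus strand), the 1 claudin with a GATA match. Capitals mark matches to the GATA hexamers or the CDX core, the latter reading ATAAA where it lies on the other strand.
Cldn2: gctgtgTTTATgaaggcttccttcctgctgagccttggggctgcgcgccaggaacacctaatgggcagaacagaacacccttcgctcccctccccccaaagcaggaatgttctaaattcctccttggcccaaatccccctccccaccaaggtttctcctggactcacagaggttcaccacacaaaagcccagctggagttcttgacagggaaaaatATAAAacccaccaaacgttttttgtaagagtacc
Cldn15: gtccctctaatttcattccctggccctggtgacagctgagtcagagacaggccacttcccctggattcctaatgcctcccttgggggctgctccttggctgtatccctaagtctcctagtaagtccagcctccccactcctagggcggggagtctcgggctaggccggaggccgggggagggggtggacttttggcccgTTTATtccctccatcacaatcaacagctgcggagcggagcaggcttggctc
Cldn4: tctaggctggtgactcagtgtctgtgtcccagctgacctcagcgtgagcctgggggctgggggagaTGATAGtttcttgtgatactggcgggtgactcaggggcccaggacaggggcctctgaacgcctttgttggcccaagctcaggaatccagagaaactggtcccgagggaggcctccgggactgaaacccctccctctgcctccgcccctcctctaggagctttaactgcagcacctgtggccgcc
A GATA hexamer lay in 2 of the 12 regions, from 2 of the 8 genes. That of Cldn4 starts 184 bases upstream and that of Tjp1 173 bases upstream. The regions of Cldn12 overlap one another, as do those of Ocln, so the 12 are not separate sequences. Of all 32851 RefSeq mouse start regions of this length, 26.5% held one. Cldn2 held TTTAT at 244 bases upstream and, on the other strand, at 34 bases, where it overlaps a TATAAA that starts 35 bases upstream. Cldn15 held TTTAT at 51 bases upstream. In the Tjp1 region the TTTAT match overlapped the GATA match. TTTAT was found in 37.3% of all regions, TATAAA in 12.4%, and GTTAAT in none of the 12 and 6.43% of all. These matches describe letters only, and binding was not measured here.

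Gata4 itself was examined first. Its signal was 9.72, 9.88 and 9.93 in cKO jejunum, against 9.68, 9.45 and 9.47 in wild-type jejunum. The arrays labelled cKO were therefore not lower for Gata4 (difference 0.31 ± 0.185, adjusted p = 0.322, limma). The sources used here give neither the exons the cluster reads nor the part of the gene that is deleted, so this signal does not check the cKO label. In the ileum Gata4 was 8.02, 8.43 and 8.17 in cKI arrays, against 6.71, 7.22 and 6.53 in control arrays, a 2.61-fold higher level (adjusted p = 0.00453, limma). Control ileum in turn exceeded wild-type ileum, at 5.99, 5.43 and 5.39, by 2.33-fold (adjusted p = 0.000284, limma). The mean in cKI ileum was 8.21 (0.208), beside 9.53 (0.126) in wild-type jejunum.

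Epithelial markers were bright throughout: all 7 (Epcam, Cdh1, Vil1, Krt8, Krt20, Cdx2 and Fabp2) exceeded the level filter of 4.91 in each group, and their mean per array ran between 10.99 and 11.54. Endothelial markers were near background, with 1 of 6 above the filter in every group. Other non-epithelial lists were not. In each group 6 to 8 of 9 stroma and smooth muscle, 6 of 7 T and NK, and 3 or 4 of 5 myeloid markers exceeded the filter. Of the 4 B and plasma markers, 4 exceeded it in wild-type and control ileum, 2 in cKI ileum and 1 in cKO and wild-type jejunum. Medians of the arrays lay between 4.82 and 5. Of the epithelial markers, Krt8 was called lower (-0.62) and Fabp2 higher (0.74) in wild-type jejunum than in wild-type ileum. Krt8 was called higher in cKO than in wild-type jejunum (0.39) and in control than in wild-type ileum (0.54). The other marker lists with called genes are given beside each comparison. In such bulk samples, fewer cells of a type and less RNA per cell cannot be told apart.

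All 10 members had 1 transcript cluster each and all 10 passed the level filter. Of the other claudin symbols on the array, 20 in number, 18 stayed below it, with no group mean over 4.79, and only Cldn14 and Cldn19 were tested. Among the members, the 5 group means of Cldn8 spanned 1.956 on the log2 scale, those of Cldn2 1.354, those of Cldn4 0.850 and those of Cldn15 0.834. At the other end Tjp1 spanned 0.113, Ocln 0.186 and Cldn3 0.208. The wide span of Cldn4 came with the largest SD within groups of the 10 genes, 0.552, against 0.107 for Tjp1.

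**Figure D1:**
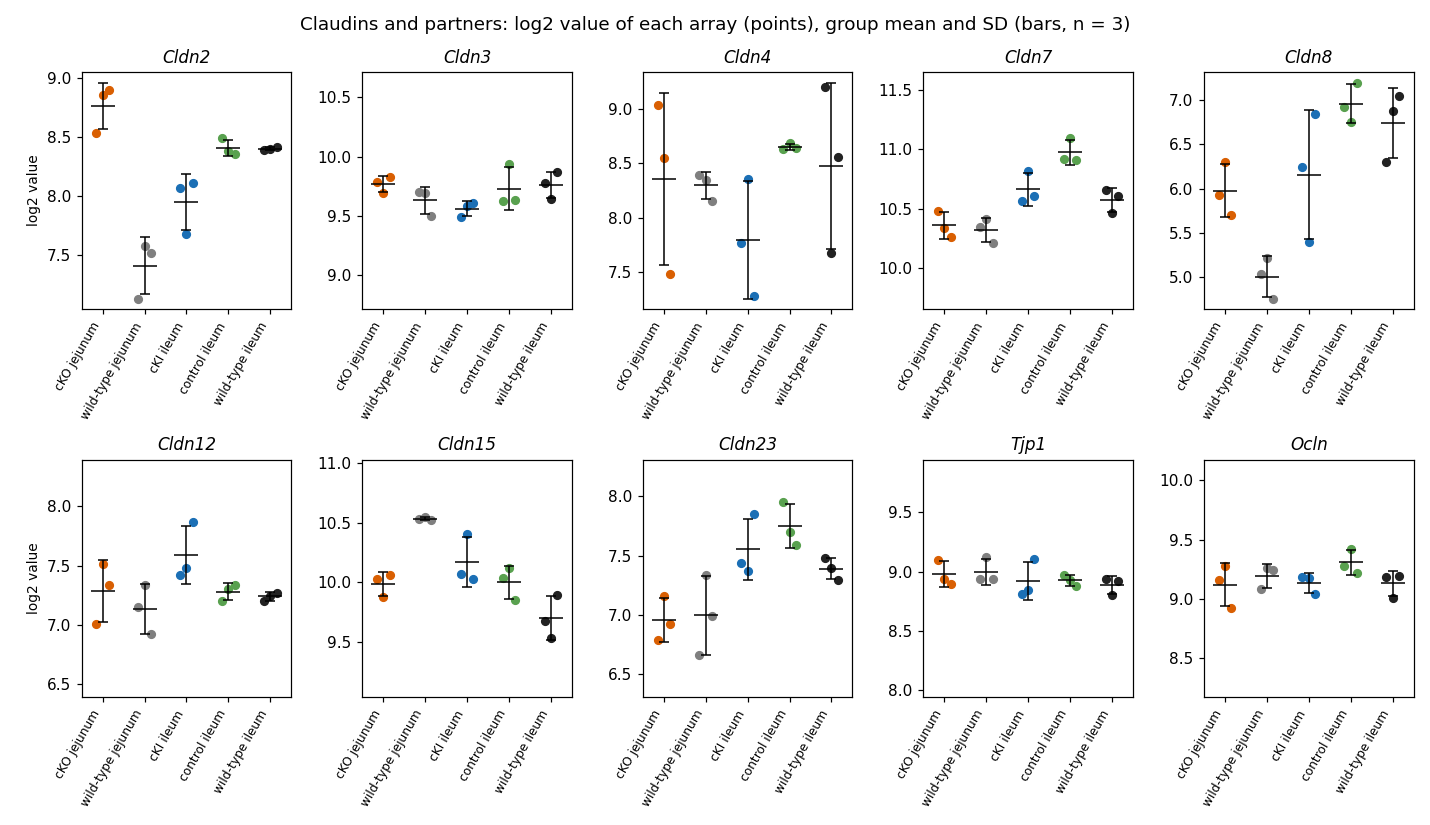
Log2 signal of the 10 members by array, with 1 panel per gene; points are single arrays, and black bars are group means with their SD (n = 3 arrays per group). Cldn2, Cldn8 and Cldn15 separate wild-type jejunum from the other groups, whereas Tjp1 and Ocln stay within a narrow band.

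Wild-type jejunum and wild-type ileum were compared to ask how the junction differs between the regions. The pore-forming claudins went opposite ways: Cldn2 was 1.99-fold lower in jejunum and Cldn15 was 1.78-fold higher. The barrier claudin Cldn8 was 3.33-fold lower in jejunum. Of the 10 members 1 was higher, 2 were lower and 7 did not pass, whereas 21.3% of all genes tested were called (13.4% higher and 7.91% lower). Of all calls 62.8% were higher, and 52.0% after quantile normalization. The median difference of the members was -0.154, beside 0.004 over all genes. The groups did not overlap for 4 of the 10, as they did not for 40.3% of all genes.

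Cldn2 read 7.13, 7.58 and 7.51 in wild-type jejunum, against 8.39, 8.40 and 8.42 in wild-type ileum. The groups did not overlap, and the ileal arrays were nearly equal. The difference was -0.99 ± 0.143 (95% confidence interval -1.30 to -0.69, adjusted p = 0.000128, limma). Cldn15 read 10.53, 10.55 and 10.52 in jejunum, against 9.67, 9.53 and 9.90 in ileum. Every jejunal array was above every ileal one. The difference was 0.83 ± 0.125 (95% confidence interval 0.57 to 1.10, adjusted p = 0.000183, limma).

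Cldn8 read 5.04, 5.21 and 4.76 in jejunum, against 6.30, 6.88 and 7.04 in ileum. The jejunal level was close to the filter, and 1 of its arrays was below it, so the fold rests on a dim signal on that side. The difference was -1.74 ± 0.294 (95% confidence interval -2.36 to -1.11, adjusted p = 0.000512, limma). All 3 calls kept their side of the threshold in every alternative setting and with any 1 array left out.

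Members that did not pass between the regions still bounded their differences. Cldn7, a claudin of the lateral membrane, read 10.34, 10.41 and 10.21 in jejunum and 10.66, 10.46 and 10.60 in ileum, groups that did not overlap (-0.25 ± 0.107, adjusted p = 0.117, limma). Cldn23 differed by -0.39 ± 0.170 (adjusted p = 0.125, limma). Neither was called, although Cldn7 passed with array weights (adjusted p = 0.0463, limma) and Cldn23 passed without replicate 2 of wild-type jejunum (adjusted p = 0.0391, limma). For Tjp1 the 95% confidence interval of the difference was -0.11 to 0.34, for Ocln -0.17 to 0.30 and for Cldn3 -0.36 to 0.10. That of Cldn4 was wider, -0.99 to 0.63, and for Cldn12 it was -0.42 to 0.21.

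Lists of cell markers also separated these regions. Of the goblet markers, 4 of 4 were lower in jejunum, with a list mean of 11.55 to 11.71 per jejunal array and 12.33 to 12.49 per ileal array. Of the stroma and smooth muscle markers, 6 of 8 tested were lower in jejunum, with list means of 4.78 to 5.02 in jejunum and 5.52 to 5.94 in ileum. Of the 7 crypt markers, 2 were lower in jejunum, Lgr5 and Axin2, and 3 of 6 villus markers were higher. Ptprc of the T and NK list (1 of 6), Ms4a1 of the B and plasma list (1 of 4) and Itgam of the myeloid list (1 of 4) were also lower in jejunum, and 0 of 5 Paneth markers were called. Their part in the claudin differences was not tested.

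**Figure D2:**
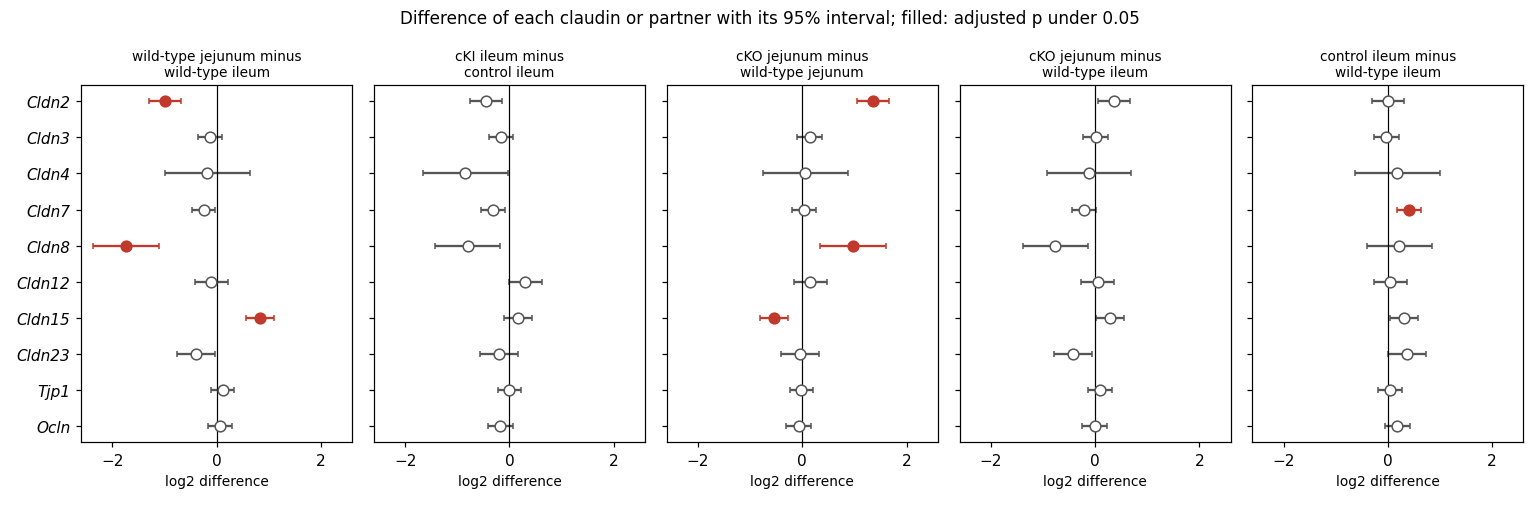
Log2 difference of each member in the 5 comparisons, with points for the estimates and bars for 95% confidence intervals; positive values are higher in the group named first. Filled points were called, among them Cldn2, Cldn8 and Cldn15 in the wild-type regions and in cKO against wild-type jejunum.

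In cKO jejunum against wild-type jejunum, the comparison for the knockout label, Cldn2 was 2.56-fold higher and Cldn8 was 1.96-fold higher. Cldn15 was 1.46-fold lower. The only jejunum without the knockout label came from CD1 wild types, and the strain of the cKO mice is not given. Genotype, strain, colony and processing therefore cannot be told apart here or in the same comparison of the wider lists. The other 7 members did not pass. The groups did not overlap for 3 of the 10 members, which were the 3 called, and for 27.2% of all genes. Calls were made for 12.8% of all genes tested (5.17% higher and 7.65% lower, or 40.3% of calls higher and 51.2% after quantile normalization), and the median difference was 0.049 over the members and -0.030 over all genes. The wild-type jejunum arrays served both here and between the regions, so opposite signs in these comparisons are not independent of each other.

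Cldn2 read 8.54, 8.85 and 8.90 in cKO jejunum, against 7.13, 7.58 and 7.51 in wild-type jejunum. No array of one group reached the other. The difference was 1.35 ± 0.143 (95% confidence interval 1.05 to 1.66, adjusted p = 1.86e-05, limma). Its call held in every alternative setting, with adjusted p between 1.10e-05 and 0.00127 (limma). Cldn15 read 10.02, 9.87 and 10.06 in cKO jejunum, against 10.53, 10.55 and 10.52 in wild-type jejunum. The highest cKO array lay below the lowest wild-type array (-0.55 ± 0.125, 95% confidence interval -0.82 to -0.28, adjusted p = 0.00861, limma). This call also held throughout, with adjusted p between 0.00582 and 0.042 (limma).

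Cldn8 read 5.93, 6.30 and 5.70 in cKO jejunum, against 5.04, 5.21 and 4.76 in wild-type jejunum. The groups did not overlap (0.97 ± 0.294, 95% confidence interval 0.34 to 1.60), but the call was marginal at adjusted p = 0.0410 (limma). It was lost with no filter on dim genes (adjusted p = 0.0513, limma) and with the replicate number as a block over all arrays (adjusted p = 0.0537, limma). It was also lost without replicate 1, 2 or 3 of wild-type jejunum and without replicate 1 or 2 of cKO jejunum, where the adjusted p of limma ran up to 0.154. The difference itself stayed between 0.81 and 1.11 in all of these fits.

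The other claudins and the partners were not called in cKO jejunum. Differences were 0.14 ± 0.109 for Cldn3, 0.04 ± 0.107 for Cldn7, 0.15 ± 0.147 for Cldn12 and -0.04 ± 0.170 for Cldn23. Tjp1 differed by -0.02 ± 0.105 (95% confidence interval -0.25 to 0.20) and Ocln by -0.07 ± 0.111 (95% confidence interval -0.31 to 0.16). Cldn4, a sealing claudin, read 9.03, 8.55 and 7.49 in cKO jejunum, against 8.39, 8.35 and 8.15 in wild-type jejunum. Its cKO arrays spread on both sides of the wild-type arrays, and the 95% confidence interval of its difference ran from -0.75 to 0.87.

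Goblet markers moved here as well: 3 of 4 (Muc2, Clca1 and Agr2) were higher, with list means of 11.97 to 12.15 in cKO jejunum and 11.55 to 11.71 in wild-type jejunum. Of the crypt markers 1 of 7 (Axin2) was higher, and of the stroma markers 1 of 8 tested (Pdgfrb). Stroma list means were 5.07 to 5.43 in cKO jejunum and 4.78 to 5.02 in wild-type jejunum. Villus list means were 11.45 to 12.22 in cKO jejunum and 12.11 to 12.45 in wild-type jejunum, with 0 of 6 called. Of the 5 Paneth markers Ang4 was 2.81-fold lower, with list means of 9.76 to 10.31 in cKO jejunum and 10.28 to 10.87 in wild-type jejunum. Their part in the claudin differences was not tested.

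Compared with wild-type ileum, cKO jejunum gave 0 called members of 10 in limma, whereas 5.1% of all genes were called (3.26% higher and 1.84% lower). An unadjusted p under 0.05 was found for 4 members, and the share of all genes at that threshold is not given here. Array weights also gave 0. Region and genotype both differ between these groups, and strain, colony and processing may differ too. The groups did not overlap for 2 of the 10, Cldn2 and Cldn23, and for 22% of all genes. Cldn2 was 0.36 ± 0.143 above the ileal level (adjusted p = 0.173, limma), and each of its cKO arrays exceeded the 8.39, 8.40 and 8.42 of wild-type ileum. Cldn8 differed by -0.76 ± 0.294 (adjusted p = 0.160, limma), Cldn15 by 0.29 ± 0.125 (adjusted p = 0.222, limma) and Cldn23 by -0.43 ± 0.170 (adjusted p = 0.171, limma). The p-values do not show that the levels were equal: the interval for Cldn8 ran from -1.39 to -0.14. Stroma list means were 5.07 to 5.43 in cKO jejunum and 5.52 to 5.94 in wild-type ileum, with 2 of 8 markers lower (Col1a1 and Col3a1). Goblet list means were 11.97 to 12.15 in cKO jejunum and 12.33 to 12.49 in wild-type ileum, with 2 of 4 lower (Muc2 and Agr2). B and plasma list means were 4.05 to 4.27 in cKO jejunum and 4.96 to 5.70 in wild-type ileum, with 0 of 4 called. Among single markers, Apoa4 of the villus list was 14.4-fold higher in cKO jejunum, and Ang4 of the Paneth list (2.69-fold) and Itgam of the myeloid list (1.84-fold) were lower. Their part in the claudin values was not tested.

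In cKI ileum against control ileum, the comparison that asks what added Gata4 does in the ileum, 0 of the 10 members were called in limma. Few genes were called at all, 0.764% of those tested (0.339% higher and 0.424% lower). An unadjusted p under 0.05 was found for 4 members. The share of all genes at that unadjusted threshold is not given here, so this count is not read as a result about the members. The 4 differences were all negative: -0.46 ± 0.143 for Cldn2 (adjusted p = 0.162), -0.85 ± 0.381 for Cldn4 (adjusted p = 0.313), -0.31 ± 0.107 for Cldn7 (adjusted p = 0.203) and -0.80 ± 0.294 for Cldn8 (adjusted p = 0.230), all from limma. With array weights 2 members passed, Cldn7 (adjusted p = 0.0472) and Cldn8 (adjusted p = 0.0381). The median difference of the members was -0.183, beside 0.032 over all genes.

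Cldn2 read 8.07, 7.68 and 8.11 in cKI ileum, against 8.49, 8.38 and 8.35 in control ileum. Every cKI array was lower than every control array. Cldn7 read 10.56, 10.82 and 10.61 in cKI ileum, against 10.92, 11.09 and 10.91 in control ileum. These groups also stood apart, by a narrow margin. Cldn8 read 6.25, 5.39 and 6.84 in cKI ileum, against 6.92, 6.76 and 7.20 in control ileum. Replicate 2 of cKI was the lowest, and the highest cKI array overlapped the controls.

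Cldn4 read 7.77, 8.36 and 7.28 in cKI ileum, against 8.63, 8.68 and 8.64 in control ileum. Here the control arrays were nearly equal and the cKI arrays scattered below them. Cldn15 read 10.07, 10.41 and 10.03 in cKI ileum, against 10.04, 10.12 and 9.85 in control ileum, overlapping groups (0.17 ± 0.125, adjusted p = 0.538, limma). Cldn12, which is linked to calcium passage in the gut, read 7.42, 7.48 and 7.87 in cKI ileum, against 7.20, 7.31 and 7.33 in control ileum (0.31 ± 0.147, adjusted p = 0.338, limma). The groups did not overlap for 6 of the 10 members, compared with 20.9% of all genes.

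Cldn3, Cldn23 and the partners were not called in cKI ileum. Cldn3 differed by -0.17 ± 0.109, Cldn23 by -0.20 ± 0.170 and Ocln by -0.17 ± 0.111. Tjp1 differed by -0.00 ± 0.105, with an interval of -0.23 to 0.22. Markers of T and NK cells had list means of 4.96 to 6.22 in cKI ileum and 6.32 to 7.13 in control ileum, with 0 of 6 tested markers called and 6 of 6 at an unadjusted p under 0.05. Goblet list means were 12.14 to 12.23 in cKI ileum and 12.51 to 12.63 in control ileum, with 1 of 4 markers lower (Clca1). Stroma list means were 5.30 to 5.61 in cKI ileum and 5.51 to 6.46 in control ileum, with 1 of 8 markers lower (Pdgfrb). Their part in the claudin values was not tested.

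**Figure D3:**
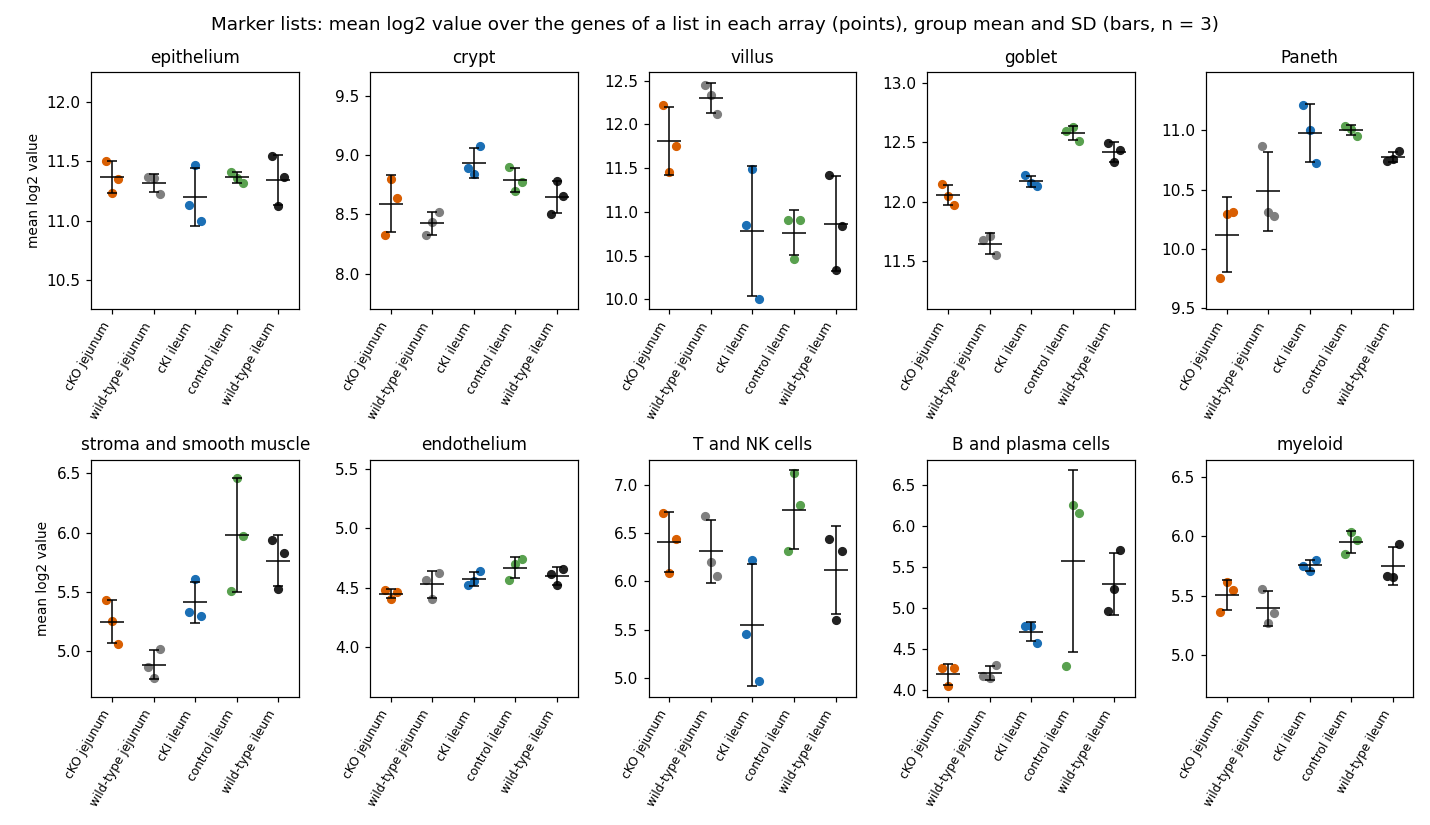
Mean log2 signal over the genes of each marker list; points are single arrays, and black bars are group means with their SD (n = 3 arrays per group). The goblet list is lowest in wild-type jejunum, at 11.55 to 11.71, and the epithelial list stays between 10.99 and 11.54 in all arrays.

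Control ileum and wild-type ileum, which are both ilea without the knock-in by their labels, showed how far the members vary between these sets of mice. Gata4 was not equal in the 2 groups: its signal was 2.33-fold higher in control ileum (adjusted p = 0.000284, limma). Cldn7 was called, 1.32-fold higher in control ileum (0.40 ± 0.107, adjusted p = 0.0122, limma), and 9 members did not pass. Of all genes tested 27.9% were called (19.3% higher and 8.61% lower, or 69.1% of calls higher and 47.9% after quantile normalization). The groups did not overlap for 3 of the 10 members, Cldn7, Cldn23 and Ocln, beside 44.8% of all genes. Cldn7 read 10.92, 11.09 and 10.91 in control ileum, against 10.66, 10.46 and 10.60 in wild-type ileum. The call was lost without replicate 2 of control ileum (adjusted p = 0.0529) and without replicate 2 of wild-type ileum (adjusted p = 0.0561), both from limma. Cldn15 differed by 0.30 ± 0.125 (adjusted p = 0.0866, limma), which passed without replicate 3 of wild-type ileum (adjusted p = 0.0467, limma). The Cldn2 difference was 0.01 ± 0.143 (95% confidence interval -0.30 to 0.31). Goblet list means were 12.51 to 12.63 in control ileum and 12.33 to 12.49 in wild-type ileum, with 2 of 4 markers higher (Tff3 and Agr2). Crypt list means were 8.70 to 8.90 in control ileum and 8.51 to 8.78 in wild-type ileum, with 3 of 7 higher (Lgr5, Ascl2 and Pcna). Stroma list means were 5.51 to 6.46 in control ileum and 5.52 to 5.94 in wild-type ileum, with Pdgfrb higher and Col3a1 and Col6a1 lower of 8 tested. Of the T and NK markers Cd3e was 2.07-fold higher, 1 of 6, with 4 of 6 at an unadjusted p under 0.05. Cd68 of the myeloid list was 2.03-fold higher and Lyz1 of the Paneth list 1.34-fold higher. The part of these markers in the member values was not tested.

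Across all groups, Cldn2 ran from cKO jejunum at 8.76 (0.197) through control ileum at 8.41 (0.071) and wild-type ileum at 8.40 (0.016) to cKI ileum at 7.95 (0.238) and wild-type jejunum at 7.41 (0.243). Only control and wild-type ileum overlapped among neighbours in that order. Cldn8 ran from control ileum at 6.96 (0.222) and wild-type ileum at 6.74 (0.394) through cKI ileum at 6.16 (0.730) and cKO jejunum at 5.98 (0.300) to wild-type jejunum at 5.0 (0.230). All of its neighbours overlapped except the last pair. Cldn15 was highest in wild-type jejunum at 10.53 (0.014), apart from the rest. Below it came cKI ileum at 10.17 (0.210), control ileum with its arrays between 9.85 and 10.12, cKO jejunum with its arrays between 9.87 and 10.06, and wild-type ileum at 9.70 (0.185), each overlapping the next.

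Cldn4 ran from 7.28 in an array of cKI ileum to 9.20 in an array of wild-type ileum, with wide spreads within most groups. Cldn23 had its highest group mean in control ileum, with arrays at 7.95, 7.70 and 7.59 that overlapped cKI ileum. Its lowest group means were those of cKO jejunum, with arrays at 6.79, 7.16 and 6.92, and wild-type jejunum, at 6.67, 7.33 and 6.99. Cldn12 ran from 6.92 in an array of wild-type jejunum to 7.87 in an array of cKI ileum. Cldn3 stayed between 9.49 and 9.94 over the 15 arrays, Ocln between 8.93 and 9.42, and Tjp1 between 8.80 and 9.12.

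Over the 15 arrays, Cldn15 ran against Cldn8 (Pearson r = -0.797) and Cldn2 (r = -0.767), while Cldn2 and Cldn8 had r = 0.645 and Cldn7 and Cldn23 had r = 0.745. The genes most like Cldn2 were Sdc1 (r = 0.945), Akr1c14 (r = 0.923) and Ampd3 (r = 0.914). Sdc1, a heparan sulfate proteoglycan, averaged 8.39 in cKO jejunum, 7.44 in wild-type jejunum, 7.75 in cKI ileum, 8.14 in control ileum and 8.09 in wild-type ileum. Most like Cldn8 were Fgfbp1 (r = 0.913), Hepacam2 (r = 0.912) and Hsd11b2 (r = 0.896). Hsd11b2, the enzyme that inactivates glucocorticoids in aldosterone target cells, averaged 7.83 in cKO jejunum, 6.51 in wild-type jejunum, 7.83 in cKI ileum, 8.34 in control ileum and 8.11 in wild-type ileum. These correlations describe arrays that share groups and carry no test.

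Other junction genes were counted from wider lists. Of 28 tested tight junction genes outside the 10, 4 were lower and 0 higher in wild-type jejunum than in wild-type ileum. Over all genes tested 21.3% were called (13.4% higher and 7.91% lower). Ildr1 (angulin-2, a protein of the contacts where 3 cells meet) averaged 5.31 (0.389) in wild-type jejunum and 7.08 (0.272) in wild-type ileum (-1.77 ± 0.203, adjusted p = 1.5e-05, limma). Lsr (angulin-1, of the same contacts) differed by -0.41 ± 0.097, the scaffold Tjp3 (zonula occludens 3) by -0.44 ± 0.089 and Ybx3, a partner of Tjp1, by -0.43 ± 0.117. The call of Ybx3 was lost without replicate 2 of wild-type ileum or replicate 1 or 2 of wild-type jejunum.

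In cKO against wild-type jejunum 3 of these 28 were higher and 1 was lower, beside 5.17% higher and 7.65% lower over all genes. Ildr1 averaged 6.63 (0.071) in cKO jejunum and 5.31 (0.389) in wild-type jejunum (1.32 ± 0.203, adjusted p = 0.000489, limma). Tjp3 (0.35 ± 0.089, adjusted p = 0.0169), Lsr (0.36 ± 0.097, adjusted p = 0.0247) and the polarity gene Pard6b (-0.49 ± 0.139, adjusted p = 0.0295) were closer to the threshold of limma. The count was 2 with the replicate block within sets and 2 when only the 2 groups were fitted, and several arrays left out in turn removed each of these 3 calls. In cKI against control ileum 0 of 28 were called in limma, beside 0.764% of all genes, and 6 had an unadjusted p under 0.05. With array weights 4 of the 28 were called, and 766 of all 11784 genes. Against wild-type ileum, cKO jejunum had 1 higher gene, Prkci (0.46 ± 0.115, adjusted p = 0.0313, limma), a polarity kinase, which the block within sets removed (adjusted p = 0.0739).

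Adherens junctions hold cells together below the tight junction. The list of 13 genes also took in Cdh17, Cdhr2 and Cdhr5. Between wild-type jejunum and ileum 0 of the 13 were called in limma, beside 21.3% of all genes, and 4 had an unadjusted p under 0.05. With array weights 4 of the 13 were called, and 3967 of all 11784 genes. In cKO jejunum Jup (plakoglobin, shared with desmosomes) was higher than in wild-type jejunum (0.44 ± 0.1, adjusted p = 0.00831, limma) and Nectin1 was lower (-0.45 ± 0.117, adjusted p = 0.0198, limma). The Nectin1 call was lost without replicate 2 of wild-type jejunum (adjusted p = 0.102) and without replicate 1 of cKO jejunum (adjusted p = 0.0693), and neither gene was called when only the 2 groups were fitted. Of 12 desmosome and keratin genes, 5 were lower in wild-type jejunum than ileum and 0 higher, beside 7.91% lower and 13.4% higher over all genes. Krt18, which pairs with Krt8 in the filaments that desmosomes anchor, averaged 8.83 (0.102) in wild-type jejunum and 9.81 (0.062) in wild-type ileum (-0.98 ± 0.097). Krt8 differed by -0.62 ± 0.105, Krt19 by -0.52 ± 0.093, Dsg2 by -0.51 ± 0.127 and Pkp2 by -0.38 ± 0.126. The Pkp2 call was lost in each leave-out of 1 array and with the replicate block within sets (adjusted p = 0.0788, limma). Without replicate 1 of wild-type ileum the Dsg2 call was lost as well (adjusted p = 0.0513, limma), and 3 of the 12 were called. With any 1 array left out the count ran from 3 to 6, and it was 8 with array weights, which called 3967 of all 11784 genes. Krt8 is also one of the epithelial markers above.

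In cKO jejunum 4 of the 12 were higher than in wild-type jejunum and 0 lower, beside 5.17% higher and 7.65% lower over all genes. Krt18 averaged 9.70 (0.129) in cKO jejunum, against 8.83 (0.102) in wild-type jejunum (0.87 ± 0.097). Krt19 differed by 0.45 ± 0.093, Pkp2 by 0.50 ± 0.126 and Krt8 by 0.39 ± 0.105. With any 1 array left out 2 or 3 of the 12 were called: the Krt8 call was lost in 5 of the 6 leave-outs, and the Pkp2 call without replicate 1 of wild-type jejunum or replicate 3 of cKO jejunum. In cKI against control ileum 0 of the 12 were called in limma, with 4 at an unadjusted p under 0.05 and 1 called with array weights. The share of all genes called was that given with each comparison above. The calls of Krt18, Krt19 and Ildr1 between the wild-type regions and in cKO jejunum held in each setting and leave-out tried.

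Control and wild-type ileum also differed in some of these genes, although neither carries the knock-in label. Their Gata4 signal differed too, as given above. Of the 28 tight junction genes 4 were higher and 2 lower in control ileum. Of the 13 adherens junction genes 0 were called, and of the 12 desmosome genes 2 were higher and 2 lower. Of all genes tested 27.9% were called in this comparison. Cgn (cingulin, a tight junction plaque protein) was lower in control ileum (-0.92 ± 0.173), as was the polarity scaffold Mpp5 (-0.69 ± 0.211). Higher were the adhesion proteins F11r (0.82 ± 0.154) and Cxadr (0.51 ± 0.107), the protease inhibitor Spint2 (0.46 ± 0.120) and Ybx3 (0.40 ± 0.117). Of 16 alternative settings and leave-outs, the call of Mpp5 was lost in 4, that of Ybx3 in 4 and that of Spint2 in 1. Of the desmosome list Krt8 (0.54 ± 0.105) and Krt18 (0.39 ± 0.097) were higher, and Dsg2 (-0.73 ± 0.127) and Pkp2 (-0.59 ± 0.126) were lower. The sources used here do not say how the control mice relate to the CD1 mice, so strain, colony and processing cannot be told apart here.

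**Figure D4:**
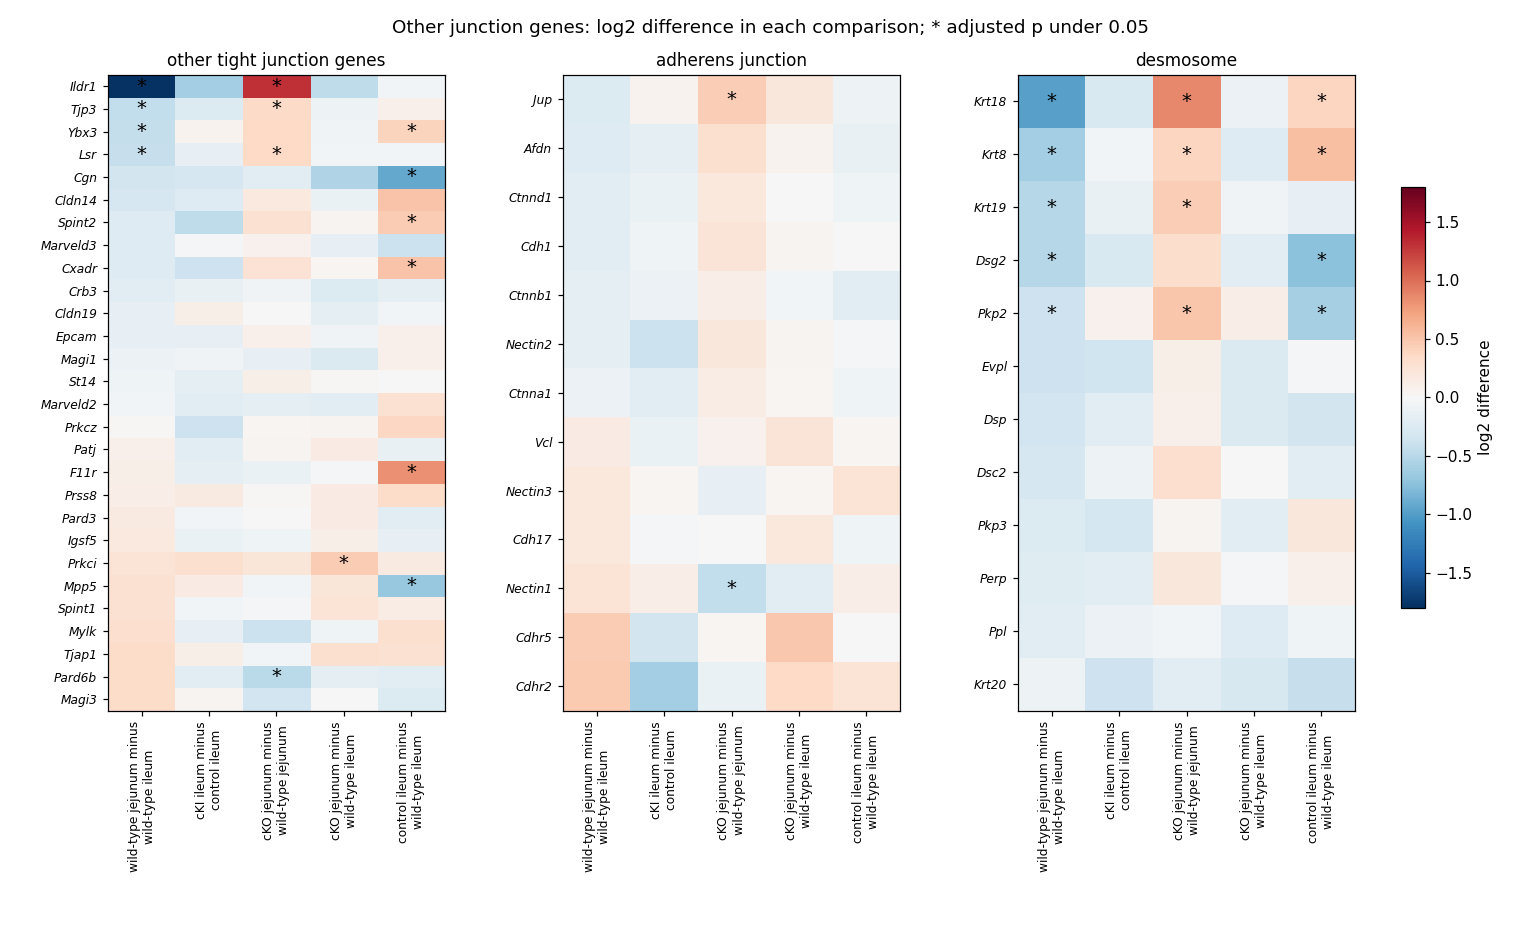
Log2 differences of the tested genes of the wider tight junction, adherens junction and desmosome lists in each comparison, drawn as colours (red higher and blue lower in the group named first; an asterisk marks adjusted p under 0.05). Ildr1 shows -1.77 in wild-type jejunum against ileum and 1.32 in cKO against wild-type jejunum.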

How the data were processed

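RNA of isolated epithelial cells was measured on 15 Affymetrix Mouse Gene 1.0 arrays. The deposited values were made by the authors with Partek, per the submitters' processing notes. Which version was used, and how background, normalization and summarization were handled, is not given in the sources used here. The log2 scale of the deposited values was inferred: their range fits it and quantiles nearly match between arrays. Of 35556 transcript clusters, 21789 carried 1 gene symbol in the platform annotation, 1621 carried several and 12146 were not listed; 19938 symbols resulted.

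The brightest cluster of a symbol was used, and genes with a group mean above 4.91, the median over the table, were tested, 11784 in all. All 15 arrays entered 1 linear model of the 5 group means (10 residual degrees of freedom) in limma 3.58.1 in R 4.3.3, moderated with eBayes, and checked on simulated data. All tests are two-sided, adjusted by Benjamini-Hochberg over the tested genes, with a threshold of 0.05. Alternatives covered the filter, quantile normalization, centring, clusters, array weights, trended variance, the groups fitted, the replicate number as a block and each array left out.

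The replicate numbers come from the labels' titles. Same-numbered arrays deviated together between wild-type jejunum and ileum (correlations 0.334, 0.216 and 0.161) and between cKI and control ileum (0.128, 0.177 and 0.258), each over the limit of 0.1 used for pairing, but not in every pair of the other comparisons. A block within those sets was therefore added after seeing the data.

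Members and lists were chosen with earlier results of these data known. Named genes are the members, Gata4, up to 6 genes of each junction list per comparison by smallest p, and the 3 genes most correlated with each member called at least 2-fold.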

Additional observations from a re-analysis of the deposited data

How the results depend on the processing

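The calls of Cldn2, Cldn8 and Cldn15 between the wild-type regions and of Cldn2 and Cldn15 in cKO against wild-type jejunum kept direction and side of the threshold in every alternative; Cldn8 in cKO jejunum and Cldn7 in control ileum did not, as given with them, and the cause was not tested. Counts over all genes moved more. Array weights gave 3967 genes called in wild-type jejunum minus wild-type ileum (2507 in the model as reported). In cKI ileum minus control ileum the count was 90, with 52 genes called without a filter on dim genes, 766 with array weights, 21 with only the 2 groups compared and 20 to 192 with 1 array left out; 2 members were called with array weights. In cKO jejunum minus wild-type jejunum 1510 genes were called and 990 to 1557 with 1 array left out, lowest without replicate 1 of wild-type jejunum (990) and without its replicate 2 (999). In cKO jejunum minus wild-type ileum 601 genes were called, 300 with only the 2 groups compared and 283 to 592 with 1 array left out, lowest without replicate 2 (283) and replicate 3 (371) of wild-type ileum. In control ileum minus wild-type ileum 0 to 2 members were called with 1 array left out (1 as reported).

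Quantile normalization lowered the share of higher calls from 62.8% to 52.0% in wild-type jejunum minus wild-type ileum and from 69.1% to 47.9% in control ileum minus wild-type ileum, where it moved the median of all genes by more than 0.1 (0.085 as reported and -0.024 after it), and raised it from 40.3% to 51.2% in cKO jejunum minus wild-type jejunum. With the replicate block within sets, 2309 genes were called in wild-type jejunum minus wild-type ileum and 96 in cKI ileum minus control ileum, with 3 and 0 members; among the members, the block over all arrays removed the call of Cldn8 in cKO jejunum alone, and the block within sets removed none. Of the wider lists, both blocks removed Pkp2 between the wild-type regions, and the block within sets removed Tjp3 and Pard6b in cKO against wild-type jejunum and Prkci in cKO jejunum against wild-type ileum.

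Small log2 differences that were not called changed sign. With quantile normalization these were Tjp1 (-0.011) and Ocln (-0.051) in wild-type jejunum minus wild-type ileum, Cldn23 (0.017) and Tjp1 (0.035) in cKO jejunum minus wild-type jejunum, Cldn3 (-0.036) in cKO jejunum minus wild-type ileum, and Cldn2 (-0.11), Cldn12 (-0.076) and Tjp1 (-0.085) in control ileum minus wild-type ileum. With arrays centred on their medians they were Tjp1 (0.031) in cKI ileum minus control ileum, Tjp1 (0.0087) in cKO jejunum minus wild-type jejunum, Ocln (0.033) in cKO jejunum minus wild-type ileum, and Cldn2 (-0.050), Cldn12 (-0.014) and Tjp1 (-0.016) in control ileum minus wild-type ileum. With array weights they were Cldn4 (-0.088) and Cldn7 (-0.024) in cKO jejunum minus wild-type jejunum, Cldn3 (-0.052) in cKO jejunum minus wild-type ileum and Cldn2 (-0.023) in control ileum minus wild-type ileum.

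With 1 array left out, the differences that changed sign ranged in wild-type jejunum minus wild-type ileum from -0.58 to 0.18 for Cldn4 and -0.20 to 0.0028 for Cldn12, and in cKI ileum minus control ileum from -0.095 to 0.051 for Tjp1. In cKO jejunum minus wild-type jejunum the ranges were -0.28 to 0.50 for Cldn4, -0.022 to 0.087 for Cldn7, -0.21 to 0.13 for Cldn23, -0.083 to 0.041 for Tjp1 and -0.15 to 0.026 for Ocln. In cKO jejunum minus wild-type ileum they were -0.050 to 0.061 for Cldn3, -0.52 to 0.32 for Cldn4, -0.070 to 0.19 for Cldn12 and -0.087 to 0.088 for Ocln. In control ileum minus wild-type ileum they were -0.034 to 0.032 for Cldn2, -0.13 to 0.023 for Cldn3, -0.23 to 0.54 for Cldn4, -0.0020 to 0.37 for Cldn8 and -0.0031 to 0.065 for Tjp1.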
